A study of Danio rerio with 6 samples.

Results

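The green cone opsin copies *opn1mw1* (ENSDARG00000097008), *opn1mw2* (ENSDARG00000044280) and *opn1mw3* (ENSDARG00000044279) lie in a row on chromosome 6 of the zebrafish. They were chosen by these identifiers, and all 3 were found among the 25190 genes of the count table and the 32264 genes of the FPKM table. The retinas came from larvae homozygous for the w59 allele of *pde6c*, born to heterozygous parents, and from WT larvae born to WT siblings of those parents. All were dissected at 5 dpf (120 hpf) after dark adaptation. Each genotype had 3 samples, named WR1 to WR3 for WT and PR1 to PR3 for *pde6c*, and a sample pooled 3 retinas from 3 larvae. Because the genotypes had different parents, effects of the mutation and of the parents' other alleles cannot be told apart.

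Opsins are the light-sensing receptor proteins of photoreceptors, and each cone subtype carries an opsin tuned to its own range of wavelengths. Zebrafish have several green opsin genes that arose by tandem duplication and are used at different times and in different regions of the retina. PDE6C, the enzyme altered in the mutant, is the cone phosphodiesterase that breaks down cGMP after an opsin has absorbed light, and cones that lack it degenerate. The comparison asked how much of each green opsin copy was left in *pde6c* retinas at this early stage of degeneration.

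The copies did not move together. *opn1mw1*, by far the most abundant copy in WT, fell to about 0.296 of its WT level in the counts. *opn1mw2* rose 17.0-fold in FPKM. *opn1mw3*, nearly silent in WT, rose from 2 fragments in the 3 WT samples together to 180 in the 3 *pde6c* samples. The sum of the copies in *pde6c* was 49.2% of the WT mean in FPKM, a difference that was not called (adjusted P-value 0.416 by limma). The *opn1mw2* share of the summed FPKM went from 1.27% to 43.6%. How fragments were divided in FPKM between *opn1mw1* and *opn1mw2*, which overlap in the annotation, is not known.

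The annotation of the array decides what each table can show. In GRCz10, with the gene models of Ensembl release 89, *opn1mw1* runs from 41184333 to 41191928 on the plus strand of chromosome 6 and spans 7596 bases. *opn1mw2* runs from 41188784 to 41191924 (3141 bases) on the same strand, wholly inside the span of *opn1mw1*. *opn1mw3* runs from 41193946 to 41195883 (1938 bases) and begins 2017 bases after the end of *opn1mw1*. The count table was made over whole gene spans, introns included, and a fragment overlapping 2 genes was assigned to neither. *opn1mw2* therefore had 0 fragments in every sample, and the fragments of *opn1mw1* came from the 4455 bases outside *opn1mw2*. This was general: all 2352 genes of the count table that lay wholly inside another gene had 0 counts in all 6 samples, against 6.76% of the 19797 genes that overlapped no other gene. By mean FPKM, *opn1mw2* ranked number 4 among the 954 genes that had 0 counts throughout but reached 1 FPKM in 3 or more samples. In RefSeq's annotation of a later assembly (GRCz12tu), the copies keep the same order and none overlaps the next.

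**Figure D1:**
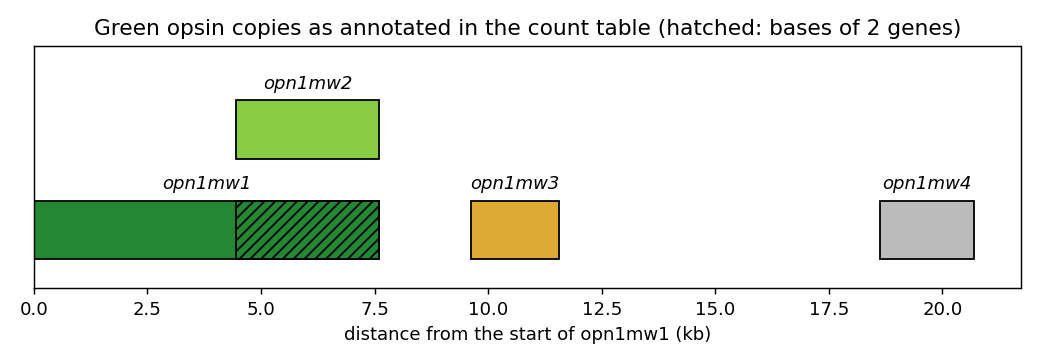
Spans of the green opsin copies in the annotation used for the count table, with distance from the start of *opn1mw1* in kb on the x axis. The hatched bases belong to both *opn1mw1* and *opn1mw2*, and fragments there were left out of the counts, so *opn1mw2* had 0 fragments in every sample.

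*opn1mw1* encodes a green-sensitive opsin and is the copy nearest the upstream end of the array. It had 92920, 65387 and 84206 fragments in WR1, WR2 and WR3 and 23259, 28438 and 20760 in PR1, PR2 and PR3. Every *pde6c* sample was below every WT sample, with a gap between the genotypes that was wider than the range within either one. As CPM, the counts scaled to the same library total, the mean ± SD of 3 samples was 3850 ± 330 in WT and 1139 ± 170 in *pde6c*. The log2 fold change was -1.83 (SE 0.14, adjusted P-value 1.32e-06, edgeR's quasi-likelihood test), a 3.55-fold fall. Over the 17242 genes tested, 2.29% were called lower in *pde6c* and 1.4% higher at an adjusted P-value under 0.1. Among the 825 genes with a mean log2 CPM of at least 8, the log2 fold change of *opn1mw1* ranked number 4 from the lowest. By fragments counted, it ranked between number 4 and number 7 in abundance in the WT samples, and between number 35 and number 68 in the *pde6c* samples.

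The FPKM table, which divides by transcript length and by the number of mapped fragments, gave nearly the same fall for *opn1mw1*. Its values were 6319, 7010 and 7823 FPKM in WR1 to WR3 and 1592, 2405 and 1933 FPKM in PR1 to PR3, again without overlap. On the log2(FPKM + 1) scale, the difference was -1.85 (SE 0.36, adjusted P-value 0.0721 by limma). Of the 15782 genes tested in FPKM, 0.792% were called lower in *pde6c* and 0.507% higher. WR1 had the most fragments of the WT samples but the lowest FPKM, so the tables differ in how they rank the samples within a genotype.

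*opn1mw2*, the second copy along the array, also encodes a green-sensitive opsin. It was listed at 88.8, 90.1 and 91.1 FPKM in WR1 to WR3 and at 1201, 1671 and 1717 FPKM in PR1 to PR3. The 3 WT values lay close together, and even the lowest *pde6c* value was far above them. The means were 90.0 ± 1.18 FPKM in WT and 1530 ± 286 FPKM in *pde6c* (SD, n = 3 each). The difference was 4.05 on the log2(FPKM + 1) scale (SE 0.21, adjusted P-value 6.78e-05 by limma), and its P-value ranked number 4 from the smallest among the 15782 genes tested. From about 950th in each WT sample, *opn1mw2* moved to between the 76th and the 107th highest FPKM in the *pde6c* samples. No count stands behind these values, their depth is unknown, and how Cufflinks divided fragments between *opn1mw1* and *opn1mw2* is not given in the sources used here. The rise of *opn1mw2* therefore rests on the FPKM table alone.

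*opn1mw3*, the third green-sensitive copy, was the rarest of the members. It had 2, 0 and 0 fragments in WR1, WR2 and WR3 and 30, 112 and 38 in PR1, PR2 and PR3. The genotypes did not overlap, and PR2 held more *opn1mw3* fragments than the other 5 samples together. The WT counts were at or under the 3 counts (0.133 to 0.160 CPM) that the depth can show. Per counted fragment, *pde6c* exceeded WT 88.7-fold, with an exact 95% interval from 24.2 to 738 that covers counting error only and not the spread between samples. In *pde6c* the level was 2.83 ± 2.11 CPM (SD, n = 3). The edgeR test gave a log2 fold change of 6.21 (SE 1.20, adjusted P-value 0.00689), a size that depends on how the test treats counts near 0. It was 8.86 without WR1, which held both WT fragments, and 5.38 without PR2 (adjusted P-values 0.0141 and 0.0677, edgeR). *opn1mw3* passed the filters on low counts and on low FPKM only through its *pde6c* samples. In FPKM it was listed at 0.137, 0 and 0 in WT and at 2.09, 10.8 and 3.36 in *pde6c*, where the difference of 2.38 on the log2(FPKM + 1) scale missed the threshold (adjusted P-value 0.112 by limma).

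**Figure D2:**
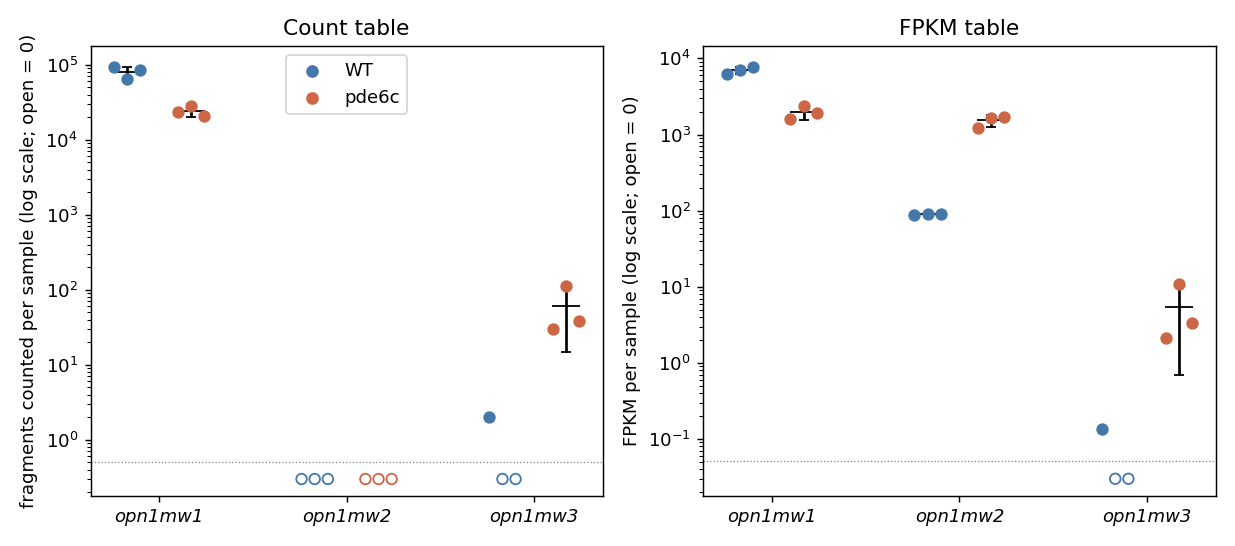
Fragments counted (left) and FPKM (right) of each green opsin copy on log axes, 1 point per sample, with blue for WT and orange for *pde6c*. Black bars are means with SD (n = 3), drawn where no sample is at 0, and open points below the dotted line are samples at 0. *opn1mw1* is lower in every *pde6c* sample, whereas *opn1mw2* in FPKM and *opn1mw3* in both tables are higher.

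In the counts, *opn1mw1* was called lower and *opn1mw2* could not be tested, while the call of *opn1mw3* carries the limit that its *pde6c* samples alone brought it past the filter. In FPKM, *opn1mw1* was called lower, *opn1mw2* higher and *opn1mw3* neither. The order of the levels per transcript length was *opn1mw1*, *opn1mw2*, *opn1mw3* in each of the 6 samples. In WT the first copy was separated from the second by far more than the spread. In *pde6c*, *opn1mw1* (1592 to 2405 FPKM) and *opn1mw2* (1201 to 1717 FPKM) had overlapping ranges, although *opn1mw1* was the higher in each sample. The order of these copies in *pde6c* depends on how Cufflinks divided fragments between them, which is not known. *opn1mw3* stayed far below both in every sample.

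The ratio of 2 copies within a sample needs no scaling between samples. The log2 ratio of *opn1mw2* to *opn1mw1* in FPKM was -6.29 ± 0.14 in WT and -0.37 ± 0.18 in *pde6c*, which is a shift of 5.92 (SD, n = 3 each). This ratio still depends on how Cufflinks divided fragments between the overlapping copies, which is not known. For *opn1mw3* to *opn1mw1* in fragments, WT is at or under the floor of 3 counts per library. With each WT sample set to that floor, the log2 ratio was at least 5.81 higher in *pde6c*, where its mean was -8.89. Both ratios were higher in every *pde6c* sample than in any WT sample. The exact permutation test, with a pseudocount of 0.5 for fragments, gave p = 0.1 for each (two-sided, adjusted p = 0.15 over the 3 pairs of copies), and 0.1 is the smallest p that 3 samples against 3 allow. The ratio of *opn1mw3* to *opn1mw2* in FPKM overlapped between the genotypes (pseudocount 0.1, exact permutation p = 0.3, adjusted p = 0.3), and in WR2 and WR3, where *opn1mw3* is listed at 0, its size is set by the pseudocount.

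As shares of the summed FPKM, *opn1mw1* made up 98.6%, 98.7% and 98.8% in WR1 to WR3 and 57.0%, 58.8% and 52.9% in PR1 to PR3. The share of *opn1mw2* was between 1.15% and 1.39% in WT and between 40.9% and 47.0% in *pde6c*. The shares of *opn1mw1* and *opn1mw2* depend on how Cufflinks divided fragments between them, which is not known. The share of *opn1mw3* reached at most 0.265%, in PR2. In the fragments counted, where *opn1mw2* is at 0, *opn1mw3* made up 0.392% of the array in PR2 (Wilson 95% interval 0.326% to 0.472%), 0.129% in PR1 and 0.183% in PR3.

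**Figure D3:**
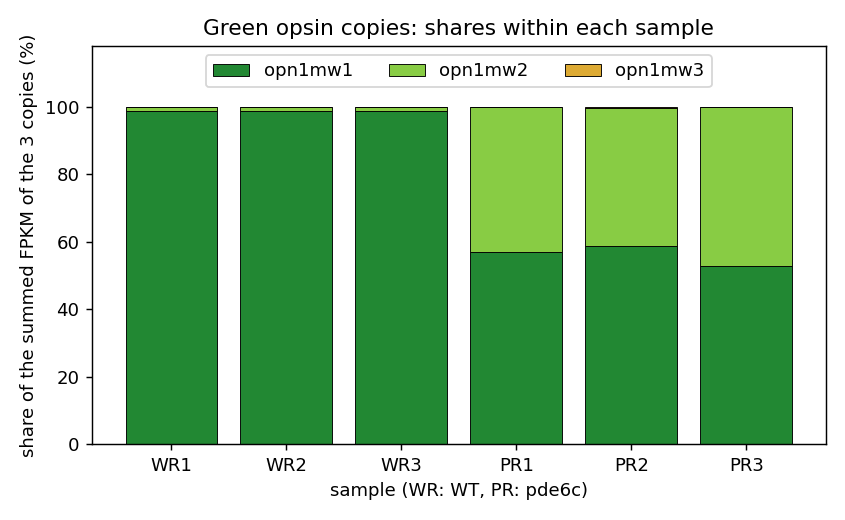
Share of each copy in the summed FPKM of the 3 copies, 1 bar per sample adding up to 100%. *opn1mw2* takes 1.15% to 1.39% of each WT bar and 40.9% to 47.0% of each *pde6c* bar, and *opn1mw3* is too small to see except as a thin line in PR2. How Cufflinks divided fragments between *opn1mw1* and *opn1mw2* is not known.

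The summed FPKM of the copies was 6408, 7100 and 7914 in WR1 to WR3 and 2795, 4087 and 3653 in PR1 to PR3. The ranges did not overlap, and the means were 7141 ± 754 and 3512 ± 658 FPKM (SD, n = 3 each). The difference of -1.04 on the log2(FPKM + 1) scale had a 95% interval from -1.95 to -0.12, but it did not pass adjustment over all genes (SE 0.40, adjusted P-value 0.416 by limma). The rise of *opn1mw2* by 1440 FPKM equalled 28.4% of the 5074 FPKM that *opn1mw1* lost. Both values and the sum depend on how Cufflinks divided fragments between these overlapping copies, which is not known. Whether the rise and the fall are linked was not tested. In the count table, the sum is *opn1mw1* with a few fragments of *opn1mw3*, and its log2 fold change was -1.82 (SE 0.14, adjusted P-value 1.32e-06, edgeR). The array made up 0.349% to 0.413% of all counted fragments in WT and 0.102% to 0.134% in *pde6c*.

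One more green opsin copy, *opn1mw4* (ENSDARG00000000638), follows *opn1mw3* and ends the array. A single fragment was counted on it, in WR2, and it was listed at 0 FPKM in all 6 samples. Its change could not be tested at this depth. Of the other genes next to the array, *FKBP5*, a co-chaperone of steroid receptors before the array, had 104, 80.5 and 32.9 CPM in WT and 24.0, 4.41 and 25.2 CPM in *pde6c*. It was called lower in the counts (log2 fold change -2.10, SE 0.48, adjusted P-value 0.0229, edgeR). In FPKM its genotypes overlapped, and it was not called (log2(FPKM + 1) difference -1.40, adjusted P-value 0.528 by limma). *cadpsb*, which follows the array and is related to factors of vesicle release, had 687 ± 49.3 CPM in WT and 737 ± 25.1 CPM in *pde6c* (SD, n = 3 each) and was not called (log2 fold change 0.03, adjusted P-value 0.969, edgeR). *slc6a22.1*, between *FKBP5* and the array, was not called either (log2 fold change -0.45, adjusted P-value 0.874, edgeR), and *slc6a22.2* and *synprb* were too low to be tested.

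The other cone opsins also differed in their direction. The UV opsin, *OPN1SW* in the names table, fell from 6982 ± 789 to 1622 ± 112 CPM (SD, n = 3 each; log2 fold change -2.18, adjusted P-value 2.03e-07, edgeR). The blue opsin *opn1sw2* had a log2 fold change of -0.80 (adjusted P-value 0.00157, edgeR). In the red opsin array, also a tandem pair, the abundant copy fell and the rare copy rose in the counts. *opn1lw2* went from 4534 ± 722 to 2554 ± 627 CPM (SD, n = 3 each; log2 fold change -0.90, adjusted P-value 0.00817, edgeR). *opn1lw1* had 5.55, 7.62 and 8.60 CPM in WT and 21.9, 37.1 and 13.4 CPM in *pde6c* (log2 fold change 1.66, adjusted P-value 0.0248, edgeR). On the log2(FPKM + 1) scale, only *OPN1SW* of these opsins was called (-2.19, adjusted P-value 0.0499 by limma). The differences were -0.81 for *opn1sw2*, -0.91 for *opn1lw2* and 1.40 for *opn1lw1* (adjusted P-values 0.473, 0.567 and 0.218 by limma).

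Within each sample, the green copies were set against other cone genes in 12 ratios chosen after the values had been seen. *opn1mw1* kept about the same ratio to *GNAT2*, which encodes the cone transducin that opsins activate. The log2 ratio in fragments had a mean ± SD over 3 samples of -0.02 ± 0.22 in WT and 0.11 ± 0.21 in *pde6c* (exact permutation p = 0.5). Against *opn1lw2* and *opn1sw2*, *opn1mw1* lost ground by 0.92 and 1.04 on the log2 scale, and against *OPN1SW* it gained 0.34, each without overlap between the genotypes (exact permutation p = 0.1, adjusted p = 0.12 over the 12 ratios). The ratios of *opn1mw1* were taken in fragments and those of the summed green copies in FPKM, where the values differed. The sum adds *opn1mw2*, which has no counts, and depends on how Cufflinks divided fragments between *opn1mw1* and *opn1mw2*, which is not known. Its log2 ratio to *opn1lw2* shifted by -0.13, with overlap (exact permutation p = 0.6, adjusted p = 0.6). It lost 0.23 on *opn1sw2* and gained 0.91 on *GNAT2* and 1.15 on *OPN1SW*, each without overlap (exact permutation p = 0.1, adjusted p = 0.12).

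The genes of the cone cascade were read from a list of transducin subunits, phosphodiesterase and channel subunits, kinases, arrestins, guanylate cyclases and their activators, and retinoid enzymes. Names were matched without copy letters where needed, so *PDE6G* (ENSDARG00000101984) stands both in this list and among the rod markers. Of 36 such genes in the count table, 32 were tested, and 15 were called lower and 2 higher. Over all genes tested, 2.29% were called lower and 1.4% higher (edgeR). The median log2 fold change was -0.73 against 0.00 over all genes tested. The lowest were *grk1b*, a kinase that shuts off active opsins (log2 fold change -2.61, adjusted P-value 2.03e-07, edgeR), and *cngb3.2*, a channel subunit (log2 fold change -2.34, adjusted P-value 9.6e-06, edgeR). Those called higher were *rbp4l*, a retinol-binding protein gene (log2 fold change 1.25, adjusted P-value 0.00253, edgeR), and ENSDARG00000100747, a *GUCA1A* gene for an activator of guanylate cyclase (log2 fold change 1.08, adjusted P-value 0.0709, edgeR). In FPKM, 12 of 36 were called lower and 1 higher, and ENSDARG00000100747 was not called (adjusted P-value 0.27 by limma). *opn1mw1* lay within the range of the genes called lower, while *opn1mw2* and *opn1mw3* moved the other way. In bulk retinas, fewer cones and less RNA per cone cannot be told apart.

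**Figure D4:**
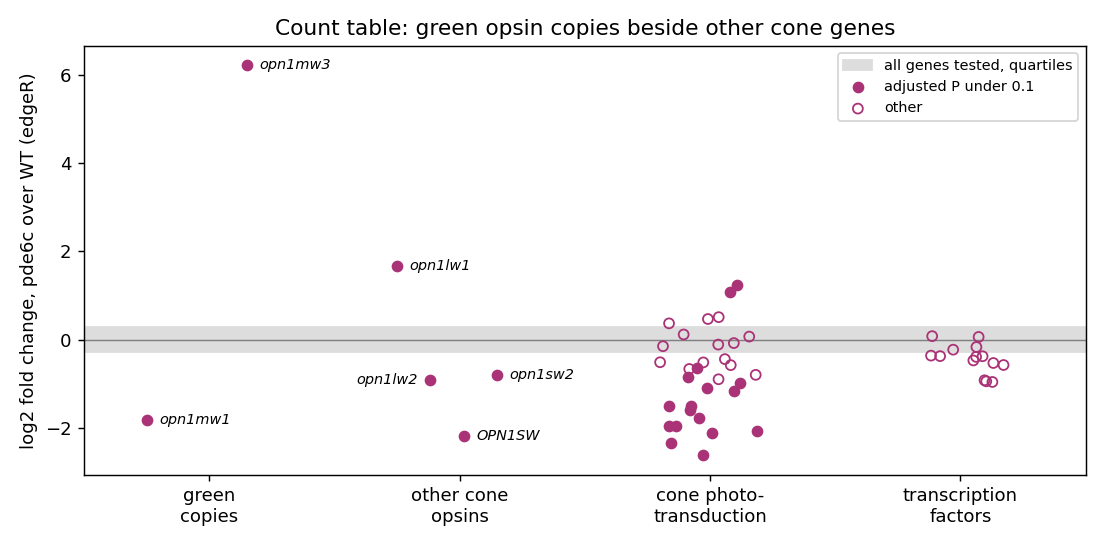
Log2 fold change of *pde6c* over WT in the count table (edgeR) for the green opsin copies, the other cone opsins, genes of cone phototransduction and photoreceptor transcription factors, 1 point per gene. Filled points have an adjusted P-value under 0.1, and the grey band spans the quartiles of all genes tested, -0.28 to 0.30. *opn1mw1* lies among the lower cone genes, *opn1mw3* is above all of the genes shown, and *opn1mw2* is missing because it has no counts.

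The genes whose profile over the 6 samples was most like that of the summed green copies were found among 5643 genes with a mean log2 CPM of at least 5. Likeness was the root mean square difference of log2 CPM after centring each gene on its mean. The closest was *ncaldb* (0.16), a neuronal calcium sensor gene, followed by *GNAT2* (0.19), *CRB1* (0.20), which encodes a polarity protein of photoreceptors, *nfat5b* (0.21) and *si:ch211-175f12.2* (0.22). In the counts this profile is that of *opn1mw1*, so a change close to that of *opn1mw1* follows from how these genes were chosen. *ncaldb* fell from 331 ± 32.2 to 102 ± 6.08 CPM (SD, n = 3 each; log2 fold change -1.77, adjusted P-value 3.84e-06, edgeR), close to the change of *opn1mw1*.

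None of 14 tested transcription factors of photoreceptors was called in either direction by edgeR, where 2.29% of all genes tested were called lower and 1.4% higher. At those shares a list of 14 would hold few calls or none, so nothing is read from their absence. The median log2 fold change of the 14 factors was -0.38, against 0.00 over all genes tested. At an unadjusted P-value under 0.05, 5 were lower and 0 higher, and DESeq2 called 3 lower and 0 higher (*six7*, *SAMD7* and *rx2*). Of the 25190 genes of the count table, 3931 of which had 0 counts throughout, DESeq2 called 581 lower and 500 higher. The share of all genes under the unadjusted level was not computed, so the counts at that level are description only. A *SIX6* gene (ENSDARG00000025187) had 0 counts and was listed at 3.99, 9.45 and 8.68 FPKM in WT and at 1.82, 1.65 and 1.15 FPKM in *pde6c*. These values did not overlap, and the log2(FPKM + 1) difference of -1.66 was not called (adjusted P-value 0.147 by limma). *six7*, a homeobox factor known in zebrafish to be needed for green opsin expression, had 365, 279 and 401 CPM in WT and 306, 229 and 207 CPM in *pde6c*. These CPM values, scaled by library total alone, overlapped (log2 fold change -0.57, SE 0.17, adjusted P-value 0.105 by edgeR and 0.0517 by DESeq2). In FPKM, *six7* was listed at 130, 117 and 173 in WT and at 98.3, 93.0 and 77.6 in *pde6c*. The FPKM values did not overlap, and the log2(FPKM + 1) difference of -0.625 was not called (adjusted P-value 0.319 by limma). *foxq2*, a blue cone factor in zebrafish, had 3.37 ± 0.98 CPM in WT and 1.88 ± 0.31 CPM in *pde6c* (SD, n = 3 each; adjusted P-value 0.627, edgeR). *THRB*, the thyroid hormone receptor of red cones, had a log2 fold change of -0.36 (adjusted P-value 0.433, edgeR), and *crx*, a factor shared by photoreceptors, one of -0.37 (adjusted P-value 0.511, edgeR).

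The libraries held 18757605 to 22510222 counted fragments. *PDE6C*, the mutated gene, also lies inside another gene and had 0 counts. In FPKM it was at 445, 655 and 520 in WT and at 60.1, 140 and 84.8 in *pde6c*, a log2(FPKM + 1) difference of -2.56 (adjusted P-value 0.00912 by limma) and without overlap. Of the genes in the FPKM table, 60.3% to 65.3% were above 0 in the WR columns and 61.2% to 65.9% in the PR columns. A summary of this share in the study lists WR and PR the other way round from the columns of the table. The labels alone could not settle which of them is right. *PDE6C* in FPKM and the sum of the cone markers in the counts (given below) were both lower in the PR columns. All directions given follow the column names. Markers of retinal identity summed to 1132 to 1521 CPM in WT and 1229 to 1356 CPM in *pde6c*, and lens markers to at most 5.22 CPM in any sample. Over all genes tested, 2.29% were called lower and 1.4% higher in the counts (edgeR), and 0.792% and 0.507% in FPKM (limma). Of the cone markers tested, 5 of 9 were lower and none higher in the counts. Their sum was 4960 to 6687 CPM in WT and 1928 to 2986 CPM in *pde6c*. Of the rod markers, 3 of 11 were lower in the counts and 0 of 13 in FPKM (limma, with 1 lower at an unadjusted P-value under 0.05), with sums of 1964 to 3133 and 1478 to 1931 CPM. The cone and rod sums were both lower in *pde6c*, as was *opn1mw1*. The rod markers tested had a median log2 fold change of -0.489, ranging from -0.904 to 0.175 (edgeR). Any part of the cone or rod markers in the change of *opn1mw1* was not tested. Of the markers of bipolar cells, 1 of 6 was higher, and none of the 45 tested markers of retinal identity, amacrine, ganglion and horizontal cells, Müller glia, microglia, pigment epithelium, lens and muscle was called by edgeR. Of those 45, DESeq2 called 1 higher and 1 lower, against 500 higher and 581 lower of the 25190 genes of the count table. At an unadjusted P-value under 0.05, 3 of the 45 were higher and 4 lower. For these and the rod markers, the share of all genes under the unadjusted level was not computed, so no result is read from it. No erythrocyte marker could be tested.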

How the data were processed

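After trimming with Trimmomatic, reads had been mapped by the authors to GRCz10 (Ensembl release 89) using STAR 2.5.3a. The deposited counts came from featureCounts 1.5.2 and hold fragments with both ends aligned, without chimeras, over whole gene spans and with no strand option. They also deposited FPKM from Cufflinks 2.2.1, whose options are not given in the sources used here. RNA had been amplified from 1 ng with a NuGEN kit. The span lengths in the count table are the authors' values.

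From the counts, edgeR 4.0.16 (filterByExpr with a minimum count of 10, TMM, quasi-likelihood test of genotype) was fitted on the whole table with Benjamini-Hochberg adjustment, and an adjusted P-value under 0.1 was called, as in the study. The SE is the absolute log2 fold change over the square root of F. Because *opn1mw2* has no counts, it was tested with limma 3.58.1 (trend) on log2(FPKM + 1), keeping genes that reached 1 FPKM in 3 or more samples, and the shares and the sum were taken from FPKM for the same reason. This scale understates changes of low genes. R was version 4.3.3 and DESeq2 1.42.0.

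Genes were named through a table of Ensembl identifiers and symbols, in which copies of some genes share a symbol in capitals. Of the 39 cascade genes listed, 35 were matched, as were all 5 other cone opsins and 15 of 16 transcription factors. The genes named were the members, the other cone opsins, *GNAT2* and *PDE6C*, the photoreceptor factors, 3 neighbours on each side, the 5 most alike and the extremes of the cascade list. The members and lists were chosen with earlier results of these data known. The alternatives were DESeq2, its size factors, other filters and pseudocounts, the replicate number as a block, a threshold of 0.05, leaving out each replicate, and FPKM with the libraries scaled. Levels per length of coding sequence and any sequence of the copies were not used here.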

Additional observations from a re-analysis of the deposited data

How the results depend on the processing

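The directions of the 3 copies were the same under every alternative read for them. For *opn1mw1* and *opn1mw3*, the FPKM fits with the block or without 1 replicate were not read. Among the alternatives read, the call of *opn1mw1* was lost only with limma on unfiltered log2(FPKM + 1) (-1.85, adjusted P-value 0.331). Its log2 fold change without 1 replicate was -1.98 to -1.74 (edgeR). *opn1mw3* lost its call on log2(FPKM + 1) with the filter (2.38, adjusted P-value 0.112), without it (2.38, adjusted P-value 0.289) and with the libraries scaled (2.37, adjusted P-value 0.115, limma), but not on log2(FPKM + 0.1) (5.03, adjusted P-value 0.0852, limma). It could not be tested with at least 10 counts required in every sample. Under the main filters on low counts and low FPKM, it passed only through its *pde6c* samples, and its calls carry that limit. *opn1mw2* kept its call throughout (3.96 to 4.22 without 1 replicate), and the FPKM sum was never called (-1.15 to -0.88). The scaling of FPKM, and the FPKM fits with the block or without 1 replicate, were chosen after seeing the data. With the replicate number as a block, the log2 changes were -1.84 for *opn1mw1*, 6.04 for *opn1mw3* (edgeR) and 4.05 for *opn1mw2* (limma), and all 3 were called. Deviations of same-numbered samples correlated weakly (0.088, 0.043 and 0.035), and the main tests did not pair them. The log2 ratio of *opn1mw2* to *opn1mw1* shifted by 5.92 with and without the block and by 5.82 to 5.998 without 1 replicate. That of *opn1mw3* to *opn1mw1* shifted by 7.64 with a pseudocount of 0.5 in fragments, by 7.19 to 8.30 without 1 replicate and by 6.88 in FPKM. Counted in fragments, the share of *opn1mw1* was 99.9993% in WT and 99.7654% in *pde6c* and that of *opn1mw2* was 0% in both, because the counting leaves out the bases of *opn1mw2*.

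The number of genes called was 636 (241 higher, 395 lower) with edgeR, 1081 (500 higher) with DESeq2 and 984 (393 higher) with the replicate block. Limma called 205 (80 higher, 125 lower) on log2(FPKM + 1), 181 (67 higher, 114 lower) on log2(FPKM + 0.1) and 64 (22 higher, 42 lower) without the filter. Without 1 replicate, edgeR called 414 to 537 in all and 246 to 311 lower, with the fewest without PR3. Of the cone cascade genes, 1 rather than 2 was higher at a threshold of 0.05 and with limma at either pseudocount, and 1 to 2 without 1 replicate. With the replicate block, 3 were higher and 16 lower (edgeR). Limma without the filter called 0 higher and 8 lower. Apart from the shares, the cause of these changes was not tested. Levels per length of coding sequence were not run. The counts of *opn1mw3* in WT and of *opn1mw4* were at or under what the depth can show.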
